A study of Mus musculus with 6 samples.

Results

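A set of genes that mark the making of new neurons in the adult brain was followed in the brains of mice without Bahd1, a gene for a chromatin protein that acts in heterochromatin formation. These 8 genes, Dcx, Igfbpl1, Sox11, Sox4, Sox2, Cd24a, Eomes and Nes, were taken by name from the 53801 genes of the count table. RNA-seq had been made from one hemisphere of each of 3 Bahd1-WT mice (Bahd1+/+) and 3 Bahd1-KO mice (Bahd1-/-), all C57BL/6 males about 70 weeks of age. The knockout is present in every tissue, part of the Bahd1-KO animals die around birth, and the adults sampled are those that lived. A hemisphere holds every region together, so for each gene fewer cells of a type and less RNA per cell cannot be told apart.

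In the adult brain new neurons come mainly from the subventricular zone, which feeds the olfactory bulb, and from the dentate gyrus of the hippocampus. Stem cells there, which keep Sox2 and Nes, give rise to intermediate progenitors, a stage that Eomes (Tbr2) marks in the hippocampal line. Their progeny become neuroblasts and immature neurons, which carry Dcx, Sox11, Sox4, Cd24a and Igfbpl1 and then lose them as they mature. Few such cells are present in a whole hemisphere of an old mouse, and several of the genes are used by other cells too. Sox2 is also expressed by astrocytes, Cd24a by ependymal cells, Nes by endothelial cells and Eomes by the output neurons of the olfactory bulb.

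The 6 libraries held 42297150 to 93557948 counts on genes, with the fewest in Bahd1-KO replicate 1 and the most in Bahd1-KO replicate 2. The counts of Bahd1 were 1383, 844 and 1099 in Bahd1-WT against 0, 14 and 1 in Bahd1-KO, as the labels say. Levels are given in CPM, the share of a library's counts that fall on a gene, on library sizes scaled by TMM. Differences are log2 fold changes of Bahd1-KO against Bahd1-WT from edgeR's quasi-likelihood test, where negative values are lower in Bahd1-KO, and a gene was called at an adjusted p under 0.05 (Benjamini-Hochberg over the 23975 genes tested). A gene property moved with genotype throughout the table. Across 13250 expressed genes the log2 fold change had a Spearman correlation of 0.882 with the GC content of the gene's transcripts, a description across genes in the same 6 libraries. With these genes divided by GC content into 10 groups of equal size, the median log2 fold change was -0.56 in the group of lowest and 1.43 in that of highest GC content. Each gene is therefore also given with an offset that removes the trend with GC content and transcript length from each library. Lung epithelium genes also differed between libraries: the summed level of 10 such genes was 135, 30.3 and 3.03 CPM in the Bahd1-WT replicates and 0.85 to 2.06 CPM in the Bahd1-KO replicates, and their part in the results was not tested.

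No member passed the test. None of the 8 genes was called in edgeR, beside 0.00834% of all genes tested (2 genes). DESeq2 called 1 of the 8 lower (Dcx) and 0 higher, beside 3.69% and 18.1% of the genes it tested. On total counts alone, with no TMM scaling, edgeR called 9.4% of all genes (2253) and 0 members. With TMM the log2 fold changes of the members were below 0 for 7 of 8 genes, beside 53.4% of all genes, with a median of -0.65 for the members and -0.06 for all genes. At an unadjusted p under 0.05, 2 members (Dcx and Sox11) were lower in Bahd1-KO and 0 were higher, beside 12% and 19.9% of all genes, so that many genes outside the set met the same threshold. In no member did the 3 Bahd1-KO libraries all lie below the 3 Bahd1-WT libraries, a pattern found in 19.3% of all genes.

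**Figure D1:**
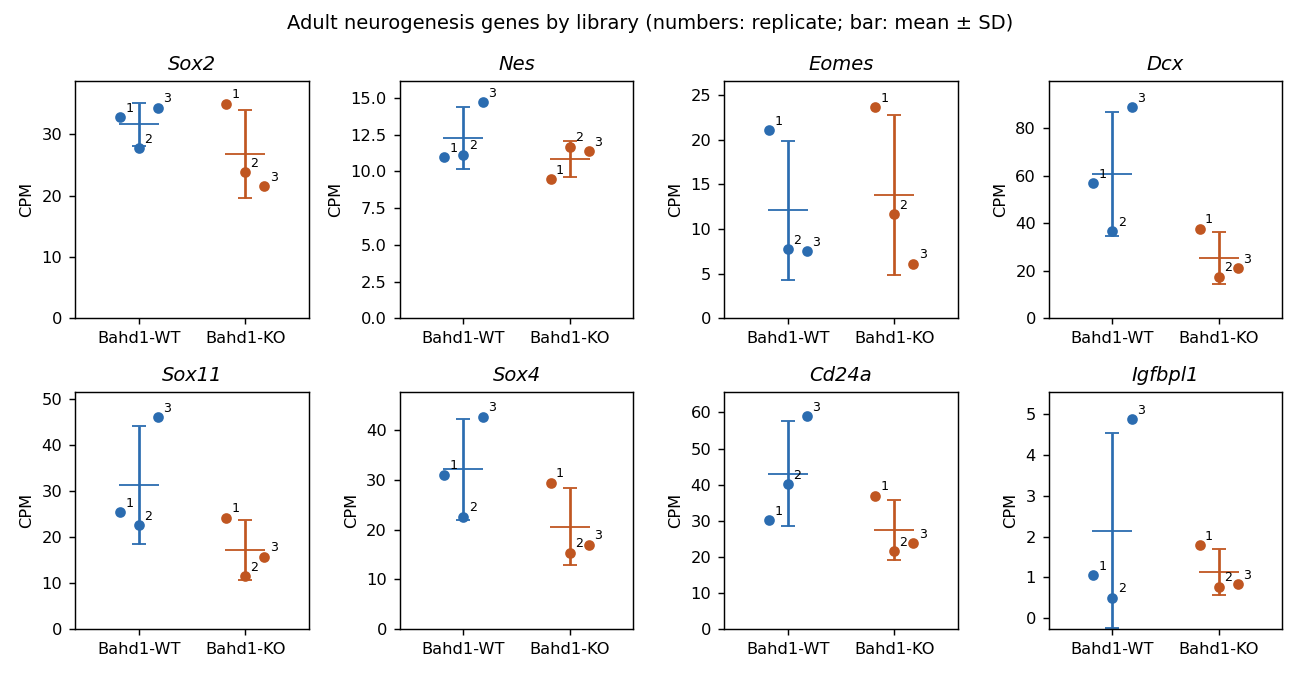
Level of each adult neurogenesis gene in CPM (vertical axes) in the 3 Bahd1-WT and 3 Bahd1-KO libraries, with points numbered by replicate, a horizontal line at the mean and bars of 1 SD. Bahd1-WT replicate 3 is the highest library in 6 of 8 panels, and the groups overlap in every panel.

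Dcx, Sox11 and Sox4 varied together over the libraries, so the stretch before the start of each is printed here beside that of Eomes, which followed another order. The sequences are from RefSeq on GRCm38.p6, where 6 of the 8 genes were matched and Igfbpl1 and Cd24a were not. They are written 5′ to 3′ on the strand of the gene, end at the first base before any annotated transcript, and hold the letters CCAAT, read on either strand, in capitals.
Dcx, chrX:143933312-143933469, minus strand: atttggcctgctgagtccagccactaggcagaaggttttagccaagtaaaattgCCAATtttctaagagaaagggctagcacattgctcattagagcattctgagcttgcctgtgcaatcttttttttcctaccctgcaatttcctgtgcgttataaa
Sox11, chr12:27342719-27342968, minus strand: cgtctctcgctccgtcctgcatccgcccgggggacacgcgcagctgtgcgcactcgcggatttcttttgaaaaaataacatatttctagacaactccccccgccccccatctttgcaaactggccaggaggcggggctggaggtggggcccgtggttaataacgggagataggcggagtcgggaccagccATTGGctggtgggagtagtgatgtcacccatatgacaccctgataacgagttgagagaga
Sox4, chr13:28953714-28953949, minus strand: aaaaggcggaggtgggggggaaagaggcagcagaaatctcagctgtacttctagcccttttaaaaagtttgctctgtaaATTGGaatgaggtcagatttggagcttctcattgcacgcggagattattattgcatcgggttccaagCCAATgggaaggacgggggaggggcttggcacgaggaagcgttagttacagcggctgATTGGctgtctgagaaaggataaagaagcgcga
Eomes, chr9:118477939-118478188, plus strand: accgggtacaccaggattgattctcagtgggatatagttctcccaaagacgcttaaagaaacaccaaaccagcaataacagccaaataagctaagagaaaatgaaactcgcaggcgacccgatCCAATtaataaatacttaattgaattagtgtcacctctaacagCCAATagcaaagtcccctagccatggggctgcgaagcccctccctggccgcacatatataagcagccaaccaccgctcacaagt
Over the 250 bases before each RefSeq start, CCAAT occurred 1 time before Dcx, 1 before Sox11, 4 before Sox4 (3 of them in the stretch printed), 1 before Sox2, 2 before Eomes and 0 before Nes. Of 32851 mouse promoters of the same length, 33.8% held it. The E-box letters CAGNTG, searched in the same way, occurred 1 time before Sox11 and 1 before Sox4 and in 44.8% of all promoters, and the letters ACAAT, part of many SOX sites, occurred 1 time before Nes and in 27.7% of all promoters. The GC content of these windows was 41.6% for Dcx, 46.4% for Eomes, 50.8% for Sox4 and 58% for Sox11, with a median of 52.4% over all promoters. CCAAT was thus present before Eomes as well as before Dcx, Sox11 and Sox4.

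Dcx (ENSMUSG00000031285, chrX:143855842-143933311, minus strand) encodes doublecortin, a microtubule protein of migrating neuroblasts and the usual marker of new neurons. Its level was 56.8, 36.6 and 88.7 CPM in Bahd1-WT replicates 1, 2 and 3, and 37.67, 17.47 and 21.02 CPM in Bahd1-KO replicates 1, 2 and 3. Bahd1-KO replicates 2 and 3 were below all Bahd1-WT libraries, while Bahd1-KO replicate 1 lay just above Bahd1-WT replicate 2. The means were 60.7 ± 26.3 and 25.4 ± 10.8 CPM (SD, n = 3 each). The log2 fold change of -1.26 ± 0.37 (SE), 2.39-fold lower in Bahd1-KO, was the largest in size of the 8 genes and had an unadjusted p of 0.00868 but an adjusted p of 0.0723 in edgeR. DESeq2 called it lower (log2 fold change -1.24, adjusted p = 0.00873), as it did 3.69% of the genes it tested. With genes of at least 1 count kept in place of a sum of 10, edgeR called it too (adjusted p = 0.0142). Dcx has transcripts of low GC content (41.6%) in the group of genes whose median log2 fold change was -0.56, and with the offset its value was -0.76 ± 0.30 (adjusted p = 0.193 in edgeR). The study placed Dcx among gene categories lower in Bahd1-KO on these same samples, so its direction here is not independent evidence.

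Sox11 (ENSMUSG00000063632, chr12:27334264-27342574, minus strand) encodes a SOXC transcription factor that acts in immature neurons and on the Dcx gene. It measured 25.4, 22.5 and 45.9 CPM in Bahd1-WT and 24.2, 11.5 and 15.7 CPM in Bahd1-KO. As for Dcx, Bahd1-KO replicates 2 and 3 were lowest, Bahd1-WT replicate 3 was highest by a wide step, and the groups overlapped through Bahd1-KO replicate 1. The log2 fold change was -0.87 ± 0.34 (SE), with an unadjusted p of 0.0328 and an adjusted p of 0.127 in edgeR. Sox4 (ENSMUSG00000076431, chr13:28948919-28953713, minus strand), which encodes the related SOXC factor, measured 31.0, 22.6 and 42.8 CPM against 29.5, 15.4 and 16.9 CPM. Its log2 fold change was -0.64 ± 0.31 (adjusted p = 0.187 in edgeR). The libraries stood in the same order in Sox11 and Sox4 as in Dcx. With the offset the values of Sox11 and Sox4 were -0.64 and -0.73, each with an unadjusted p under 0.05 (0.0445 and 0.024) and neither called. The gene model of Sox4 shares 2616 bases with the antisense gene Gm26735, and the labels do not say whether the kit marked strand, which the methods state.

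Cd24a (ENSMUSG00000047139, chr10:43578284-43584265, plus strand) encodes a surface glycoprotein of neuroblasts and of the ependymal cells that line the ventricles. Its levels were 30.1, 40.1 and 58.9 CPM in Bahd1-WT and 37.0, 21.5 and 23.8 CPM in Bahd1-KO, again with Bahd1-KO replicate 1 inside the Bahd1-WT range. The log2 fold change was -0.65 ± 0.29 (SE, adjusted p = 0.164 in edgeR) and -0.58 ± 0.22 with the offset. Of 12 ependymal genes, 5 were higher in Bahd1-KO at an unadjusted p under 0.05 and 0 were lower, beside 19.9% and 12% of all genes, and their summed level was 23.7 to 26.9 CPM in Bahd1-WT and 32.8 to 60.6 CPM in Bahd1-KO. With the offset 3 were higher and 0 lower, the median log2 fold change went from 0.62 to 0.29, and the sums were 27.0 to 28.8 CPM and 31.2 to 42.9 CPM. Their part in the level of Cd24a was not tested.

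Igfbpl1 (ENSMUSG00000035551, chr4:45809468-45826923, minus strand), a gene of neuroblasts and young granule cells that encodes an insulin-like growth factor binding protein-like factor, was the least abundant member. Its counts were 97, 31 and 358 in the Bahd1-WT libraries against 78, 74 and 48 in the Bahd1-KO libraries, or 1.06, 0.50 and 4.88 CPM against 1.79, 0.78 and 0.83 CPM. Bahd1-WT replicate 3 stood apart from the other 5 libraries, and the highest and lowest Bahd1-WT libraries differed 9.72-fold. The log2 fold change of -0.94 ± 0.74 (SE, adjusted p = 0.393 in edgeR) was within this spread. Without Bahd1-WT replicate 3 it was 0.50, on the other side of 0. With the offset it was -1.58 ± 0.75 (SE, unadjusted p = 0.0613, adjusted p = 0.268 in edgeR), and -0.11 when Bahd1-WT replicate 3 was left out as well.

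**Figure D2:**
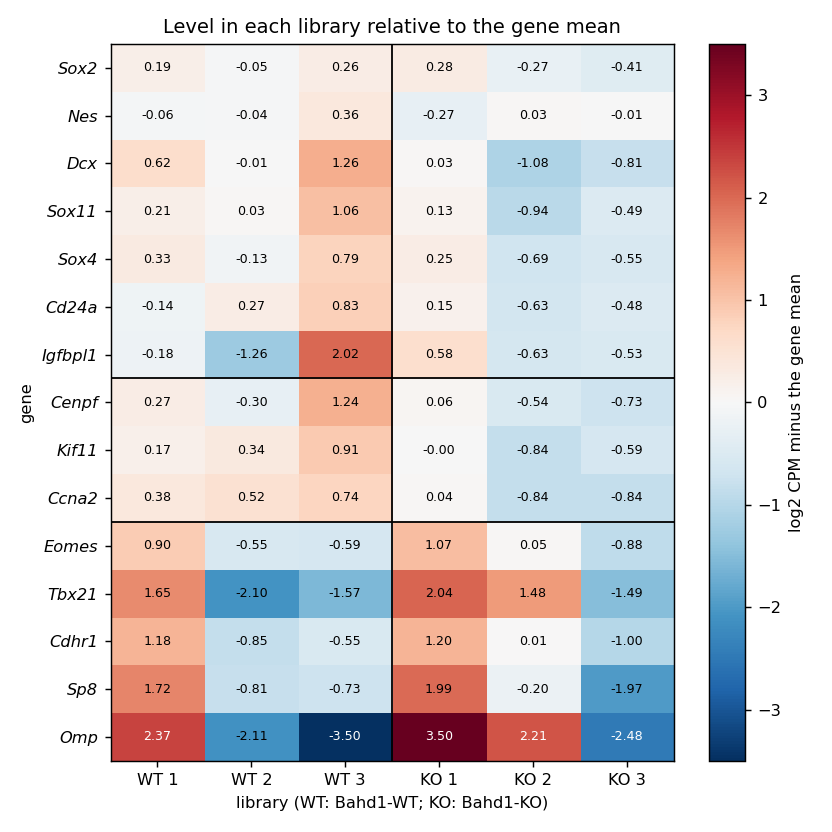
Log2 CPM of each gene minus its mean over the 6 libraries (color and printed value), with libraries in columns and genes in rows. The upper block holds 7 members, the middle block 3 cell division genes that followed Dcx and the lower block Eomes with 4 olfactory genes picked after their values were seen. Dcx, Sox11, Sox4 and Cd24a are highest in Bahd1-WT replicate 3, and Eomes and the 4 olfactory genes are high in Bahd1-WT replicate 1 and Bahd1-KO replicate 1, with Tbx21 and Omp high in Bahd1-KO replicate 2 too.

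Over all genes with a mean of at least 1 CPM, the 5 whose centered log2 CPM came nearest to that of Dcx over the 6 libraries were Sox11, Cenpf, Kif11, Sox4 and Ccna2, with root mean square differences of 0.241, 0.293, 0.306, 0.317 and 0.336 among 14705 genes. Sox11 and Sox4 were thus among the 5 nearest, and the other three are used in cell division: Cenpf encodes a kinetochore protein, Kif11 a spindle motor and Ccna2 cyclin A2. Cd24a ranked 59, Sox2 2104, Nes 6104, Igfbpl1 6253 and Eomes 10172. After removal of the trend with GC content the 5 nearest were Sox11, Mycn, Cenpf, Sox4 and Zfp428, so Sox11, Cenpf and Sox4 were among the 5 nearest on both scales. On that scale Cd24a ranked 43, Sox2 94, Nes 1301, Igfbpl1 12878 and Eomes 13611. These ranks rest on the same 6 libraries and include the difference between the genotypes.

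The 20 cell division genes were examined as a list, since dividing progenitors precede the neuroblasts. Their log2 fold changes were below 0 for 19 of 20 genes (median -0.91), and 10 were lower and 0 higher at an unadjusted p under 0.05, with 0 called in edgeR and 9 called lower in DESeq2, beside 12% of all genes lower at that p and 3.69% called lower in DESeq2. These genes have a low GC content (median 45.9%), and with the offset the median was -0.54 and 8 were lower and 0 higher, beside 11.1% of all genes lower. Their summed level was 31.6, 28.3 and 45.6 CPM in Bahd1-WT replicates 1, 2 and 3 and 23.3, 17.3 and 18.8 CPM in Bahd1-KO replicates 1, 2 and 3, so these groups did not overlap. Bahd1-WT replicate 3 was the highest library in 15 of 20 of these genes and in 6 of 8 members, beside 12.2% of all genes tested. The study reported Mki67 and Top2a of this list as lower in Bahd1-KO on these same samples. Their direction here is therefore not independent evidence. The cell division genes can be used by other cycling cells of a hemisphere as well, and the part of such cells was not tested.

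The values of the members moved with single libraries. Bahd1-KO replicate 1, the library with the fewest counts, lay within the Bahd1-WT range for 5 of 8 members, whereas Bahd1-KO replicates 2 and 3 were below every Bahd1-WT library for 5 and 6 members. Bahd1-KO replicate 2 was the lowest library in 4 members and Bahd1-KO replicate 3 in 2, beside 30.8% and 12.1% of all genes. Without Bahd1-KO replicate 1, 4 members were called in edgeR, all lower, beside 30% of all genes called in either direction in that fit. They were Dcx (-1.63, adjusted p = 0.011), Sox11 (-1.18, adjusted p = 0.0289), Sox4 (-0.96, adjusted p = 0.0288) and Cd24a (-0.90, adjusted p = 0.0412). Without Bahd1-WT replicate 3 the same 4 genes had values of -0.88, -0.49, -0.38 and -0.36, and 0 members were called, beside 0.0171% of all genes.

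Sox2 (ENSMUSG00000074637, chr3:34650405-34652461, plus strand) encodes the transcription factor that maintains neural stem cells. It measured 32.8, 27.7 and 34.3 CPM in Bahd1-WT and 35.0, 23.8 and 21.5 CPM in Bahd1-KO, with Bahd1-KO replicate 1 the highest of all 6. The log2 fold change was -0.24 ± 0.22 (SE, adjusted p = 0.458 in edgeR), with a 95% confidence interval of -0.74 to 0.26, and with the offset -0.33 ± 0.15 (adjusted p = 0.251). Of 12 astrocyte genes, which share cells with Sox2, 5 were higher and 1 lower at an unadjusted p under 0.05, beside 19.9% and 12% of all genes, and with the offset 2 were higher and 2 lower. Their median log2 fold change was 0.30 without and -0.02 with the offset. Their sum was 5702 to 6208 CPM in Bahd1-WT and 5034 to 6063 CPM in Bahd1-KO.

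Nes (ENSMUSG00000004891, chr3:87971078-87980451, plus strand) encodes nestin, an intermediate filament protein of stem cells that endothelial and mural cells also carry. Its levels were close together, at 10.95, 11.13 and 14.7 CPM in Bahd1-WT and 9.47, 11.7 and 11.4 CPM in Bahd1-KO, and its log2 fold change was -0.18 ± 0.20 (SE, adjusted p = 0.566 in edgeR). Nes has transcripts of high GC content (56.4%), in a group of genes whose median log2 fold change was 0.92. With the offset its value became -1.06 ± 0.22, with an unadjusted p of 0.000715 and an adjusted p of 0.0759. GC-adjusted levels were 12.8, 17.6 and 20.1 CPM in Bahd1-WT and 10.1, 5.94 and 8.30 CPM in Bahd1-KO. On that scale all Bahd1-KO libraries were below all Bahd1-WT libraries, as in 13.6% of all genes. Of 12 endothelial and mural genes, 4 were higher and 0 lower at an unadjusted p under 0.05 without the offset, beside 19.9% and 12% of all genes. Their sums of 470 to 502 CPM in Bahd1-WT and 475 to 517 CPM in Bahd1-KO overlapped without the offset. With it 5 were higher and 0 lower, beside 9.63% and 11.1% of all genes, and the sums were 440 to 458 CPM and 464 to 541 CPM, so that all Bahd1-KO libraries were above all Bahd1-WT libraries where Nes was below.

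**Figure D3:**
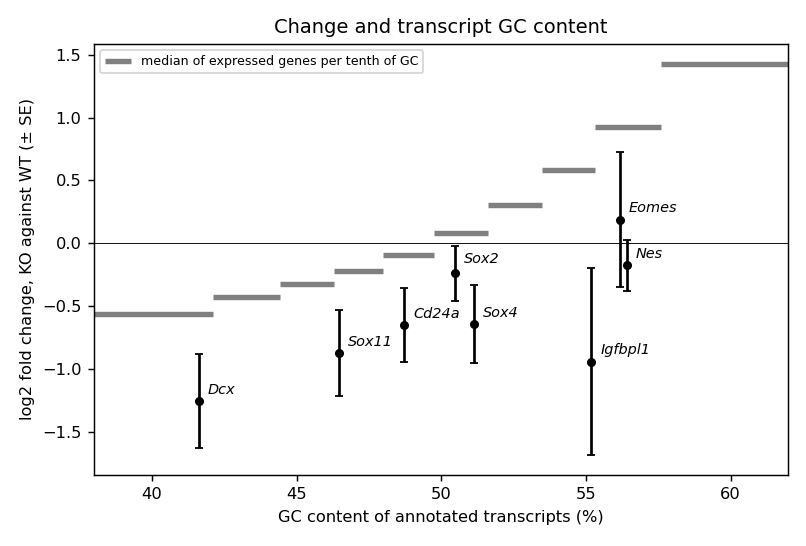
Log2 fold change of each member (black points, bars of 1 SE, vertical axis) against the GC content of its annotated transcripts in percent, with the median of each of 10 groups of expressed genes by GC content as grey lines. The members lie below the grey line at their GC content, by the most for Igfbpl1 and Nes.

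Eomes (ENSMUSG00000032446, chr9:118478212-118486132, plus strand) encodes the T-box factor of intermediate progenitors, which the mitral and tufted output neurons of the olfactory bulb also express. It measured 21.1, 7.71 and 7.49 CPM in Bahd1-WT and 23.6, 11.7 and 6.12 CPM in Bahd1-KO. One library of each genotype, both numbered 1, was far above the rest, and the log2 fold change was 0.19 ± 0.54 (SE, adjusted p = 0.83 in edgeR) with a 95% confidence interval of -1.04 to 1.41. With the offset it was -0.45 ± 0.56. Single olfactory genes were high in the same 2 libraries, some of them in Bahd1-KO replicate 2 as well. Tbx21, a factor of the same output neurons, measured 1.53, 0.11 and 0.16 CPM in Bahd1-WT and 2.0, 1.36 and 0.17 CPM in Bahd1-KO, and Cdhr1, a cadherin of these cells, 50.4, 12.3 and 15.2 CPM and 50.8, 22.3 and 11.1 CPM. Sp8, a factor of olfactory bulb interneurons, measured 14.5, 2.51 and 2.65 CPM and 17.4, 3.83 and 1.12 CPM, and Omp, the protein of mature olfactory sensory neurons, 3.98, 0.18 and 0.07 CPM and 8.71, 3.55 and 0.14 CPM. These 4 genes were picked from 3 lists after their values were seen, and the summed levels of 2 of these lists had another order. The sum of 7 output neuron genes was 488, 405 and 516 CPM in Bahd1-WT and 563, 859 and 610 CPM in Bahd1-KO. Most of it was Slc17a7, a vesicular glutamate transporter that cortical neurons also use. Of these 7 genes, 2 were higher and 0 lower at an unadjusted p under 0.05, beside 19.9% and 12% of all genes. With the offset 0 were higher and 2 lower, beside 9.63% and 11.1% of all genes, and the median went from 0.64 to -0.07. The sum of 8 sensory neuron genes was 68.5, 43.6 and 64.5 CPM and 97.8, 153 and 89.1 CPM, so that both sums were highest in Bahd1-KO replicate 2. On the GC-adjusted scale the output neuron sums were 554, 603 and 678 CPM in Bahd1-WT and 584, 461 and 467 CPM in Bahd1-KO. The sensory neuron sums there were 84.0, 69.7 and 92.9 CPM and 96.0, 66.8 and 69.0 CPM. Both were thus lowest in Bahd1-KO replicate 2 on that scale. The sum of 9 interneuron genes was 443, 323 and 311 CPM and 470, 416 and 301 CPM. Bahd1-KO replicate 1 was highest and Bahd1-WT replicate 1 next, as on the GC-adjusted scale. How much olfactory bulb each hemisphere held, and its part in the level of Eomes, was not tested. The gene model of Eomes shares 118 bases with the antisense gene Gm33460.

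Compared per length, as TPM over annotated exons, the order of the members in Bahd1-WT was Cd24a (54.0 ± 19.7, SD, n = 3), Sox2 (49.7 ± 7.44), Sox4 (21.8 ± 7.65), Dcx (15.7 ± 7.30), Sox11 (12.3 ± 5.42), Eomes (9.43 ± 6.21), Nes (6.18 ± 1.27) and Igfbpl1 (2.18 ± 2.46). The SDs of Cd24a and Sox2 overlapped, as did those of Sox4 and Dcx, of Dcx and Sox11, of Sox11 and Eomes and of Eomes and Nes, while those of Sox2 and Sox4 and of Nes and Igfbpl1 did not. Within single libraries, Sox2 was above Sox4 and Sox4 above Dcx in each of the 6. In Bahd1-KO the means were 45.8 ± 12.3 for Sox2, 37.5 ± 11.7 for Cd24a, 15.1 ± 5.79 for Sox4, 11.6 ± 7.58 for Eomes, 7.27 ± 2.82 for Sox11, 7.08 ± 3.06 for Dcx, 5.94 ± 0.66 for Nes and 1.23 ± 0.63 TPM for Igfbpl1. Eomes stood above Dcx and Sox11 there and below both in Bahd1-WT, with the SDs of all 3 genes overlapping. These TPM values carry no GC adjustment, and the GC content of the transcripts was 56.2% for Eomes, 46.5% for Sox11 and 41.6% for Dcx.

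**Figure D4:**
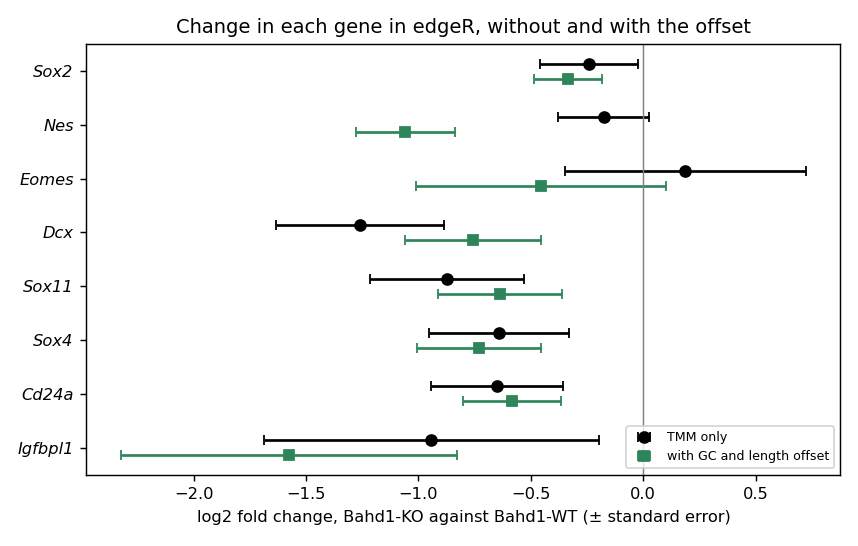
Log2 fold change of Bahd1-KO against Bahd1-WT in edgeR for each member (horizontal axis, bars of 1 SE), without (black circles) and with (green squares) the offset for GC content and length. All 8 values lie below 0 with the offset, Nes moves from -0.18 to -1.06 and Dcx from -1.26 to -0.76.

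With the offset, 0 members were called in edgeR, beside 0.0209% of all genes, and all 8 log2 fold changes were below 0. At an unadjusted p under 0.05, 5 members (Dcx, Sox11, Sox4, Cd24a and Nes) were lower and 0 higher, beside 11.1% of all genes lower. On the GC-adjusted scale Bahd1-KO replicates 2 and 3 were below all Bahd1-WT libraries in 8 of 8 members, and Bahd1-KO replicate 1 was within the Bahd1-WT range in 7 of 8. Bahd1-KO replicate 2 was the lowest library in 6 members and Bahd1-KO replicate 3 in 2, beside 24.5% and 13.8% of all genes. The offset moved the members of high GC content (Nes, Eomes and Igfbpl1) down and Dcx up. Without Bahd1-WT replicate 3 as well, Dcx was at -0.35, Sox11 at -0.25, Sox4 at -0.49, Cd24a at -0.31 and Nes at -0.91, with 1 member (Nes) at an unadjusted p under 0.05, beside 18.7% of all genes.

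The other genes of the pathway were taken from 4 lists, and none of their genes was called in edgeR. Of 21 neural stem cell genes, 5 were higher and 2 lower in Bahd1-KO at an unadjusted p under 0.05, beside 19.9% and 12% of all genes (DESeq2 called 3 higher and 0 lower, beside 18.1% and 3.69% of all genes), and their median log2 fold change was 0.13. With the offset 3 were higher and 5 lower, beside 9.63% and 11.1% of all genes, and the median was -0.04. Among those with a mean of at least 1 CPM, the 3 with the lowest p were Hes5, a Notch effector (log2 fold change 1.88), Notch1, its receptor (1.12), and Id4, an inhibitor of differentiation (-0.61). With the offset they stood at 0.050, 0.17 and -0.16, so that most of each difference was in the part the offset removed. Of 11 intermediate progenitor genes, read against the same shares, 2 were higher and 3 lower (DESeq2 called 1 and 1), with a median of -0.10. With the offset 1 was higher and 4 lower, and the median was -0.58. Gadd45g, a stress and cell cycle gene, led them at 3.70, where Bahd1-KO replicate 2 alone had 23.8 CPM and the other libraries 0.66 to 3.52 CPM. With the offset Gadd45g was at 1.68, and its GC-adjusted level was 7.22 CPM in Bahd1-KO replicate 2 and 1.18 to 2.59 CPM in the others. Btg2, an antiproliferative gene of progenitors about to make neurons, measured 15.5, 13.2 and 17.2 CPM in Bahd1-WT and 10.4, 10.4 and 9.60 CPM in Bahd1-KO. Its value was -0.60 without and -0.59 with the offset, and the groups did not overlap. Mcm2, a replication licensing gene, was at 0.73, and at 0.0052 with the offset.

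Of 30 neuroblast and immature neuron genes other than the members, 5 were higher and 1 lower at an unadjusted p under 0.05, beside 19.9% and 12% of all genes. DESeq2 called 4 higher and 0 lower, beside 18.1% and 3.69%. The median was -0.003, with 15 values on each side of 0. With the offset 7 were higher and 7 lower, beside 9.63% and 11.1% of all genes, and the median was 0.04. The 3 with the lowest p were all higher in Bahd1-KO: Tubb3, a neuronal tubulin (2.06), Fxyd6, an ion pump regulator (0.95), and Stmn1, a tubulin-binding phosphoprotein (0.82). With the offset they were at 0.73, 0.52 and 0.98. Tubb3 and Stmn1 are used by mature neurons as well. Within the list, Bahd1-WT replicate 3 was the highest library in 10 of 30 genes (33.3%, beside 12.2% of all genes) and Bahd1-KO replicate 2 in 9 (30%, beside 33.3% of all genes). Among the 10, named after their values were seen, Draxin, an axon guidance gene, measured 0.71, 0.37 and 4.28 CPM in Bahd1-WT and 0.74, 0.86 and 0.85 CPM in Bahd1-KO. St8sia2, the polysialic acid synthase of young neurons, measured 7.32, 5.93 and 19.4 CPM and 5.70, 6.97 and 7.67 CPM, and Dpysl3, a growth cone protein, 52.1, 49.5 and 120 CPM and 51.3, 45.4 and 64.1 CPM. In these 3 genes Bahd1-WT replicate 3 was alone above the other 5 libraries, while in most genes of the list another library was highest.

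Of 24 niche signals, which regulate stem cells and guide neuroblasts, 7 were higher and 2 lower at an unadjusted p under 0.05, beside 19.9% and 12% of all genes, with a median of -0.002. DESeq2 called 5 higher and 0 lower, beside 18.1% and 3.69%. With the offset 2 were higher and 2 lower, beside 9.63% and 11.1%, and the median was 0.04. Wnt7b, a WNT ligand (1.16), Bmp4, a ligand that holds stem cells quiescent (1.14), and Slit1, a repellent for migrating neuroblasts (1.19), had the lowest p. With the offset they were at -0.11, 0.61 and -0.10, so only Bmp4 of these 3 stayed above 0. The 10 dentate granule neuron genes, which mark the mature cells of that line, had 1 gene higher and 2 lower at an unadjusted p under 0.05, beside 19.9% and 12% of all genes, and sums of 881 to 977 CPM in Bahd1-WT and 516 to 871 CPM in Bahd1-KO. With the offset 0 were higher and 3 lower, beside 9.63% and 11.1% of all genes, the median went from -0.37 to -0.09, and the sums of 752 to 795 CPM and 759 to 852 CPM overlapped.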

How the data were processed

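RNA-seq counts of 1 hemisphere from each of 3 Bahd1-WT and 3 Bahd1-KO mice were used. The authors deposited raw read counts per gene, with no filter or normalization. Their processing notes name cutadapt 1.11, STAR 2.5.0a and featureCounts 1.4.6-p3 on GRCm38, the supplementary methods also name Tophat2, and the methods give strand-specific counting. Groups and replicate numbers came from the sample labels and titles, and 0 columns were left unused.

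The test, run on genes whose counts summed to 10 or more, used edgeR 4.0.16 (R 4.3.3) with TMM, a model of genotype alone and adjustment by Benjamini-Hochberg, and DESeq2 1.42.0 was an alternative. For the offset, log2 CPM was fitted in each library by natural splines of GC content (5 df) and log length (3 df), with GENCODE M21 annotation for 99.9% of the genes tested. The edgeR and offset steps were tested on simulated counts. The 8 members and the gene lists were chosen with earlier results of these data known. Named genes were the members, the 3 genes of lowest p with a mean of at least 1 CPM in each of the 4 pathway lists, the 5 genes nearest Dcx, and markers of cells that share a member. Draxin, St8sia2, Dpysl3 and the olfactory genes named with Eomes were picked after their values were seen. Other alternatives were upper-quartile factors, DESeq2 size factors and total counts in edgeR, 2 other filters, leaving out each sample, a replicate block and its combination with the offset. The offset with each sample left out was added after the data were seen. Depth was 42297150 to 93557948 counts per library. Replicates are separate mice.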

Additional observations from a re-analysis of the deposited data

How the results depend on the processing

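Over 22 alternatives Dcx, Sox11, Sox4, Sox2, Cd24a and Nes stayed below 0 on the log2 scale in every one (Dcx from -1.63 to -0.35, Sox11 from -1.18 to -0.25, Sox4 from -1.11 to -0.38, Sox2 from -0.53 to -0.10, Cd24a from -0.90 to -0.31, Nes from -1.24 to -0.028). Of 8 members, 1 (Dcx) was called by DESeq2 without and with its normal prior and 1 with the filter of at least 1 count (Dcx, adjusted p = 0.0142 in edgeR, where 11% of all genes were called), against 0 in the edgeR fit reported. Leaving out each sample gave 0 to 4 called. The 4 were without Bahd1-KO replicate 1, where 30% of all genes were called, against 0% to 0.0174% in the other fits. At an unadjusted p under 0.05 leaving out each sample gave 1 to 5, beside 18.3% to 43.2% of all genes. The 5 members and the 43.2% were both without Bahd1-KO replicate 1. With the offset as well, leaving out each sample gave 0 to 4 called (Sox4, Sox2, Eomes and Nes without Bahd1-KO replicate 1, beside 10.2% of all genes) and 6, 7 and 1 at an unadjusted p without Bahd1-WT replicates 1, 2 and 3, and 8, 1 and 1 without Bahd1-KO replicates 1, 2 and 3, beside 18.1%, 13.4%, 18.7%, 25.2%, 13.7% and 18.6% of all genes in that order. Upper-quartile factors, which moved the median of all genes by -0.14, and the filter of at least 1 count each gave 4 members at an unadjusted p (beside 34.7% and 25.2% of all genes), the offset gave 5 (20.7%) and the offset with the replicate block 7 (15.6%), against 2 (31.8%). The cause of these differences was not tested.

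Igfbpl1 ranged from -1.41 to 0.50 with each sample left out and reversed without Bahd1-WT replicate 3. It was at -1.58 with the offset, and from -2.29 to -0.11 with the offset and each sample left out. Eomes, at 0.19, ranged from -0.40 to 0.86 in the same way and reversed to -0.053 without Bahd1-WT replicate 2, -0.065 without Bahd1-WT replicate 3, -0.40 without Bahd1-KO replicate 1, -0.45 with the offset and -0.70 with the offset and replicate block. With the offset it reached 0.065 without Bahd1-WT replicate 1, -0.61 without Bahd1-WT replicate 2, -0.69 without Bahd1-WT replicate 3, -1.54 without Bahd1-KO replicate 1 (called, adjusted p = 0.0235 in edgeR), -0.14 without Bahd1-KO replicate 2 and -0.073 without Bahd1-KO replicate 3.

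Same-numbered libraries of the genotypes did not deviate together (correlations of -0.646, -0.66 and -0.139). Differently numbered libraries reached 0.635 (Bahd1-WT replicate 2 with Bahd1-KO replicate 1) and 0.622 (Bahd1-WT replicate 1 with Bahd1-KO replicate 2). With 3 libraries per genotype these correlations cannot show whether the numbers pair the mice. With the replicate block 0 members were called, and 2 had an unadjusted p under 0.05, beside 21.8% of all genes. Dcx was at -1.24 in that fit (adjusted p = 0.122 in edgeR), while 7 genes in all were called against 2. Each member other than Igfbpl1 had at least 354 counts in every library, and Igfbpl1 had 31 to 358.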
